A study of Mus musculus with 4 samples.

Results

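Genes of the Klf and Sp zinc finger families were followed in hair peg cells that were sorted by their expression of Shh or of Nfatc1. The hair peg is the stage at which the young hair follicle grows down as a column of epithelium. The genes were picked by symbol: Klf3, Klf4, Klf5, Klf6, Klf9, Klf10, Sp1, Sp5, Sp6 and Sp8, 10 of the 23361 genes in the expression table. All 10 were found there, and 9 of them passed the filter on low values. RNA was sequenced from 2 libraries of Shh+ cells and 2 libraries of Nfatc1+ cells of mouse back skin at E17.5. Shh+ cells came from Shh-CreER::Rosa-stop-tdTomato::K14-H2BGFP embryos and Nfatc1+ cells from Nfatc1-CreER::Rosa-stop-tdTomato::K14-H2BGFP embryos, in both cases after a single dose of Tamoxifen to the mother at E15.5. Tamoxifen activates CreER, a recombinase made under the control of Shh or Nfatc1, which switches on the red reporter tdTomato for good. Cells were therefore labelled by what they or their parent cells expressed when the drug was given. K14-H2BGFP gives green nuclei to keratin-14 epithelial cells, and cells with both colours were sorted.

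Tissue digestion differed between the populations, and its steps cannot be told apart from the population in any comparison below. For Shh+ cells, dispase treatment for 1 h allowed removal of the epidermis, and trypsin was applied for 10 min to the remaining dermis and its hair pegs. For Nfatc1+ cells, whole skin with its epidermis was digested in trypsin for 16 min. Nothing in the sources says whether the libraries of a population came from separate animals or litters. A p-value sets the difference between populations against the spread between libraries of a population. That spread may be technical, and for each gene it is drawn toward the spread of genes at a similar level. In bulk RNA of this kind, fewer cells that express a gene and less RNA of it per cell cannot be told apart.

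Klf and Sp proteins are transcription factors that bind GC-rich and CACCC elements in promoters through a block of zinc fingers near the C terminus. Most Klf proteins were named for their likeness to the fly gap gene Krüppel, and Sp1 was the founder of the Sp branch. In mouse skin, Klf4 is needed for the barrier of the outer epidermal layers, and Sp6 (epiprofin) is needed for normal hair follicles and teeth. Sp5 is a target of Wnt/β-catenin signaling in many embryonic tissues.

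Promoter windows in RefSeq, which run from 250 bases before to 50 bases after a transcription start, were matched for 7 of the 10 genes (Klf3, Klf4, Klf6, Klf9, Sp1, Sp5 and Sp8). The 250 bases before the start are printed for Sp5, the gene with the largest difference toward Shh+ cells, and for Klf3 and Klf4, the genes with the largest differences toward Nfatc1+ cells among the 10. Capitals mark matches on either strand to CTTTGA, a core recognised by TCF/LEF factors of the Wnt pathway, and to GGGCGG, the GC box bound by Sp factors. The sequences are from GRCm38.p6 and are written 5′ to 3′ on the strand of the gene. Sp5 is at chr2:70474673-70474922 on the plus strand, Klf3 at chr5:64803271-64803520 on the plus strand and Klf4 at chr4:55532476-55532725 on the minus strand.
Sp5: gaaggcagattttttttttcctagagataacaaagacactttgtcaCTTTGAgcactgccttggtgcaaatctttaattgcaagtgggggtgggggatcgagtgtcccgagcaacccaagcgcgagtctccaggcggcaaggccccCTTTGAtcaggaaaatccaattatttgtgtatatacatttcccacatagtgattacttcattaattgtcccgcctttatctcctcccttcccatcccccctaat
Klf3: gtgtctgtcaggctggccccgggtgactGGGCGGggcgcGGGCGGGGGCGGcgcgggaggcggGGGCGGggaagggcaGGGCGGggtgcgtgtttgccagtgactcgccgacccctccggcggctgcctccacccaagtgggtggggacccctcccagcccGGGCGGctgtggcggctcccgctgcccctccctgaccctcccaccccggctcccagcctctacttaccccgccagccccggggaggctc
Klf4: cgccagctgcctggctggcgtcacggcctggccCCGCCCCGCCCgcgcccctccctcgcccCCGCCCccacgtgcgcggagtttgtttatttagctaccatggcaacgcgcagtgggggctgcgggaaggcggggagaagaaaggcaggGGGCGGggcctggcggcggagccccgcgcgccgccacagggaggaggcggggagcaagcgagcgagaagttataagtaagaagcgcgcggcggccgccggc
The Sp5 window held CTTTGA at 2 places, with first bases at positions −204 and −104 from the transcription start, and no GC box. Klf3 had 6 GC boxes and Klf4 had 4, with no CTTTGA in either. Of 32851 promoter windows of the same length in the mouse table, 16.0% held CTTTGA and 1.73% held it 2 or more times, while 35.7% held a GC box and 19.5% held 2 or more. The window of Sp1 had 4 GC boxes, that of Klf6 had 1 GC box and 1 CTTTGA, which started at base 17 after the transcription start, and that of Klf9 had neither. The GC content was 45% for Sp5, against 76.7% for Klf3, 74.3% for Klf4 and a median of 52.7% over all windows. A match of letters describes the window and is not evidence that a factor binds there.

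**Figure D1:**
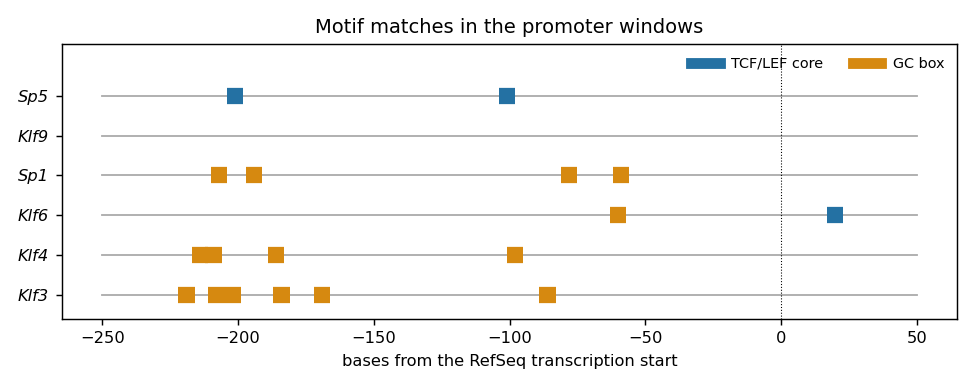
Matches to the TCF/LEF core (blue, CTTTGA) and the GC box (orange, GGGCGG) on either strand in the promoter windows of 6 genes, by distance in bases from the RefSeq transcription start (dotted line); each grey line is 1 window of 300 bases. Sp5 holds 2 TCF/LEF cores and no GC box, and Klf3 (6), Klf4 (4) and Sp1 (4) hold GC boxes and no TCF/LEF core.

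Expression is given as FPKM, fragments scaled to transcript length and to the mapped fragments of the library, so levels can be compared between genes. The 12750 genes that averaged 0.5 FPKM or more were tested with limma on log2(FPKM + 0.5), and a gene was called when its Benjamini-Hochberg adjusted p was under 0.05. A log2 difference is Shh+ minus Nfatc1+ on this scale, where the change of a low gene is understated. Folds are ratios of mean FPKM. Each population was checked by its marker gene: Shh was at 144 and 145 FPKM in Shh+ cells and at 10.5 and 11.7 FPKM in Nfatc1+ cells, and Nfatc1 was at 25.3 and 20.1 FPKM in Shh+ cells and at 112 and 116 FPKM in Nfatc1+ cells. The epithelial markers Krt5, Krt14, Krt17, Cdh1, Epcam and Trp63 were present in every library, with summed levels of 5852 and 5707 FPKM in Shh+ cells and 8236 and 8079 FPKM in Nfatc1+ cells. Read depth relative to Nfatc1+ replicate 1, taken from the value of 1 fragment among low genes, was 0.927 and 0.575 in the Shh+ libraries and 0.927 in Nfatc1+ replicate 2, and Shh+ replicate 2 thus gives the least precise low values. The absolute depth is unknown. All 10 melanocyte markers were higher in replicate 2 than in replicate 1 of both populations. Melanocyte sums were 8.20 and 46.1 FPKM in Shh+ and 32.2 and 67.1 FPKM in Nfatc1+ libraries. Mitf was called toward Nfatc1+ cells (log2 difference −2.88, limma adjusted p = 5.18e-05), and the other 9 were not called. It was at 0.860 and 1.29 FPKM in Shh+ and at 9.74 and 12.3 FPKM in Nfatc1+ libraries. Of 8 fibroblast markers, Dcn was called toward Shh+ and Col3a1 toward Nfatc1+ cells. At an unadjusted limma p under 0.05, 1 was higher in Shh+ and 4 were higher in Nfatc1+ cells. Fibroblast sums were 550 and 609 FPKM in Shh+ and 289 and 558 FPKM in Nfatc1+ libraries. Dcn alone was at 326 and 425 FPKM in Shh+ and at 40.3 and 57.7 FPKM in Nfatc1+ libraries. Immune markers summed to between 3.36 and 8.33 FPKM over the 4 libraries, with Cd3e at 0, erythroid markers to between 30.2 and 67.3 FPKM, and muscle markers to at most 0.796 FPKM.

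Some of the Klf and Sp genes were called toward each population, and 2 of the Sp genes, Sp5 and Sp6, had the largest differences. In Shh+ cells, Sp5 was higher by 12.6-fold and Sp6 by 10.4-fold. Klf3, Klf4, Klf10 and Klf6 were higher in Nfatc1+ cells, by 2.23-fold or less. Klf5, Sp1 and Klf9 were not called, and Sp8 was listed at 0 in all 4 libraries. Of the 9 tested genes, 2 were called higher in Shh+ cells, where 18.1% of all tested genes were, and 4 were called higher in Nfatc1+ cells, where 18.9% of all tested genes were. In either direction 37.0% of all tested genes were called. The median log2 difference of the 9 genes was −0.14, against 0.0018 over all tested genes. Libraries of the populations did not overlap for 8 of the 9 genes, and 70.7% of all tested genes had no overlap. Both Shh+ libraries were above both Nfatc1+ libraries for 3 of the 9 (35.6% of all tested genes), and both Nfatc1+ libraries were above both Shh+ libraries for 5 (35.1%). Called differences of at least 2-fold were found for 2 of the 9 toward Shh+ cells (4.77% of all tested genes) and for 1, Klf3, toward Nfatc1+ cells (5.81%).

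**Figure D2:**
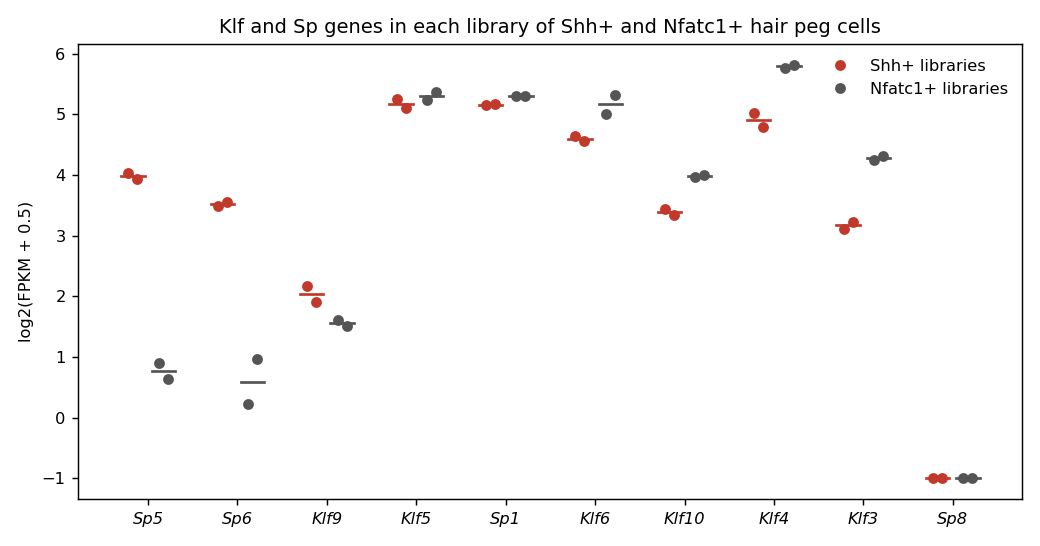
Levels of the 10 genes, log2(FPKM + 0.5), by library of Shh+ (red) and Nfatc1+ (grey) cells, with replicate 1 left of replicate 2 and lines at the mean of the 2 libraries. Sp5 and Sp6 have the widest gaps, toward Shh+ cells, the libraries of Klf5 overlap, and Sp8 lies at the floor of the scale because it was listed at 0.

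Sp5 encodes a repressor of the Sp branch that acts within the Wnt pathway. Its locus spans 70474923 to 70477726 on chromosome 2 (GRCm38). It was at 15.9 and 14.8 FPKM in the Shh+ libraries and at 1.38 and 1.05 FPKM in the Nfatc1+ libraries. Both Shh+ libraries were at least 10.8 times above the higher Nfatc1+ library, while the 2 libraries of a population differed by 1.07 and 1.31 times. The ratio of the means was 12.6, and the log2 difference was 3.21 (standard error 0.14, limma adjusted p = 1.02e-05). Among all genes of the table, Sp5 was at percentiles 76.8 and 75.7 in Shh+ libraries and 51.5 and 49.7 in Nfatc1+ libraries.

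Sp6 had the same direction as Sp5, at a lower level than Sp5 in both Shh+ libraries. Its gene lies on chromosome 11 from 97013569 to 97024739. Sp6 was at 10.7 and 11.3 FPKM in the Shh+ libraries and at 0.669 and 1.44 FPKM in the Nfatc1+ libraries. The libraries of Shh+ cells were close to each other, but Nfatc1+ replicate 2 was 2.16 times replicate 1, so the level in Nfatc1+ cells is known only roughly. Even so, the lower Shh+ library was 7.39 times the higher Nfatc1+ library. The ratio of means was 10.4, with a log2 difference of 2.93 (standard error 0.24, limma adjusted p = 0.000138) that ranged from 2.56 to 3.30 when 1 library was left out. In GENCODE, Sp6 overlaps the noncoding gene Gm11532 on the opposite strand over 4227 bases. Gm11532 has no row in the table, and the use of strand in counting is not given in the sources used here, so reads from it could count toward Sp6.

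Sp8, a factor of the limb ridge and the forebrain (chromosome 12, 118846288 to 118852578) of the same branch of the family as Sp5 and Sp6, was listed at 0 FPKM in both Shh+ and both Nfatc1+ libraries. The table cannot tell a gene that is off from one whose estimate failed. It has 3 promoter windows in RefSeq, of which 1 holds a CTTTGA and a GC box.

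Sp1 (chromosome 15, 102406316 to 102436404), the widely expressed founder of the family, was among its more abundant genes in both populations. It was at 35.0 and 35.4 FPKM in Shh+ cells and at 38.8 and 38.8 FPKM in Nfatc1+ cells. The libraries did not overlap, but the difference was small and not called, at −0.14 on the log2 scale (95% interval −0.29 to 0.01, limma adjusted p = 0.118).

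Among the 6 Klf genes chosen by symbol, Klf3 showed the largest difference. Klf3 is a repressor that recruits the CtBP corepressors, and it lies on chromosome 5 from 64803521 to 64832901. It was at 8.19 and 8.82 FPKM in Shh+ libraries and at 18.4 and 19.4 FPKM in Nfatc1+ libraries. Klf3 was thus 2.23-fold higher in Nfatc1+ cells, with a log2 difference of −1.11 (standard error 0.09, limma adjusted p = 0.000126), and libraries of a population differed by no more than 1.08 times. In GENCODE its locus overlaps 2 transcripts without a row in the table, Gm20033 on the opposite strand and C230096K16Rik on the same strand.

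Klf4, the barrier factor, was the most abundant of the 10 genes in Nfatc1+ cells. It lies on chromosome 4 from 55527137 to 55532475. Its levels were 32.0 and 27.3 FPKM in Shh+ cells and 54.2 and 56.0 FPKM in Nfatc1+ cells. The log2 difference was −0.89 (standard error 0.09, limma adjusted p = 0.00034), or 1.86-fold higher in Nfatc1+ cells, and the lower Nfatc1+ library was 1.69 times the higher Shh+ library.

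Klf5 (chromosome 14, 99298691 to 99313412) is a factor of dividing basal epithelial cells. It had the highest mean of the 10 genes in Shh+ cells, not separated from that of Sp1, and it did not separate the populations, at 37.5 and 34.0 FPKM in Shh+ libraries and 37.4 and 41.1 FPKM in Nfatc1+ libraries. The libraries overlapped, and the log2 difference was −0.13 (95% interval −0.32 to 0.06, limma adjusted p = 0.238). In fold terms, the interval ran from 0.799 to 1.04 times the Nfatc1+ level.

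Klf6 and Klf10 belong to the genes that many cells induce within minutes of a stimulus, and Klf10 was first found as an early response gene of TGF-β. Klf6 (chromosome 13, 5861489 to 5870393) was at 24.5 and 23.1 FPKM in Shh+ cells and at 31.8 and 39.5 FPKM in Nfatc1+ cells, a log2 difference of −0.57 (standard error 0.11, limma adjusted p = 0.0066). Klf10 (chromosome 15, 38291464 to 38300711) was at 10.4 and 9.59 FPKM in Shh+ cells and at 15.2 and 15.5 FPKM in Nfatc1+ cells, with a log2 difference of −0.60 (standard error 0.09, limma adjusted p = 0.00204). For each of them both Nfatc1+ libraries were above both Shh+ libraries. The spread was wider for Klf6, whose Nfatc1+ replicate 2 was 1.24 times replicate 1. Without 1 library at a time, the log2 difference of Klf6 lay between −0.72 and −0.41 and that of Klf10 between −0.65 and −0.54.

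Klf9, which glucocorticoids and thyroid hormone induce in many tissues, was low and was the Klf gene among the 10 with the higher level in Shh+ cells. Klf9 lies on chromosome 19 from 23141226 to 23168129. It was at 4.01 and 3.23 FPKM in Shh+ libraries and at 2.55 and 2.36 FPKM in Nfatc1+ libraries. The groups did not overlap, and the log2 difference was 0.47 (95% interval 0.10 to 0.84), but the limma adjusted p of 0.0526 just missed the threshold. Klf9 was called in 5 of 12 alternative analyses, among them scaling to the upper quartile (0.0459) and to the median (0.0455) and a fit without Shh+ replicate 2 (0.0482), over a range from 0.0427 to 0.221.

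**Figure D3:**
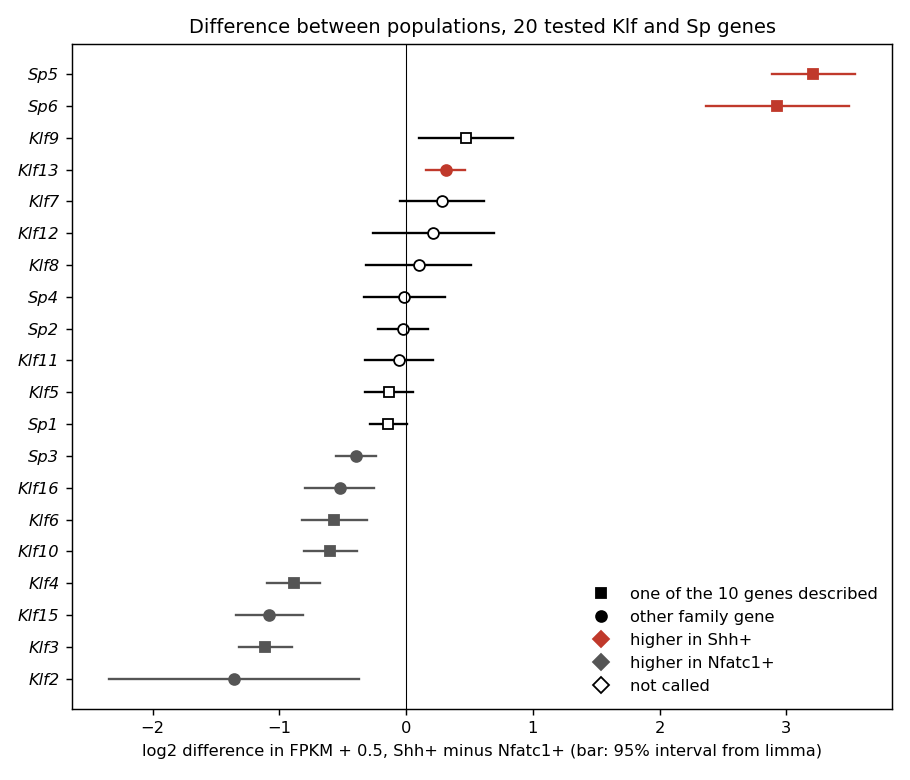
Log2 difference in FPKM + 0.5, Shh+ minus Nfatc1+, with its 95% interval from limma for the 20 tested Klf and Sp genes; squares are the 10 genes chosen by symbol (9 tested), circles the rest of the family, and red and grey fill mark a call toward Shh+ and toward Nfatc1+, with open symbols where there was no call. Sp5 and Sp6 stand alone at the right, at 3.21 and 2.93, and the Klf gene farthest from 0 is Klf2, at −1.36.

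The rest of the family was then read from the same fit. Of 17 further Klf and Sp symbols, 16 had a row and 11 were tested. Over all tested genes, 18.1% were called toward Shh+ and 18.9% toward Nfatc1+ cells. Only Klf13 was called higher in Shh+ cells, and Klf2, Klf15, Klf16 and Sp3 were called higher in Nfatc1+ cells, with a median log2 difference of −0.03. Klf13, a close relative of Klf9, was the most abundant family gene in Shh+ cells, at 55.4 and 52.3 FPKM against 42.6 and 43.9 FPKM in Nfatc1+ cells (log2 difference 0.31, limma adjusted p = 0.0089). Klf15, a glucocorticoid-induced regulator of metabolism, was at 5.83 and 5.96 FPKM in Shh+ cells and at 14.1 and 12.0 FPKM in Nfatc1+ cells (−1.08, adjusted p = 0.000425). Klf16 was at 11.1 and 10.0 FPKM in Shh+ cells and at 14.0 and 16.9 FPKM in Nfatc1+ cells (−0.53, adjusted p = 0.0115). Sp3, which shares the GC box with Sp1, was at 48.7 and 49.5 FPKM in Shh+ cells and at 67.6 and 61.9 FPKM in Nfatc1+ cells (−0.40, adjusted p = 0.00403).

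Klf2, best known in endothelial cells and T cells, was low and uneven, at 1.23 and 0.271 FPKM in Shh+ cells and 3.32 and 1.79 FPKM in Nfatc1+ cells (log2 difference −1.36, limma adjusted p = 0.0406). Its log2 difference was −0.77 without Shh+ replicate 2 (adjusted p = 0.133) and −0.99 without Nfatc1+ replicate 1 (0.152), and in neither fit was it called. Klf2 was called in 6 of 12 alternative analyses, and its call also ended with a pseudocount of 0.1 (0.0509), with no filter on low values (0.0979), without a trend (0.0936) and at an unadjusted p under 0.01 with a fold above 2. The call of Klf16 ended without Nfatc1+ replicate 2 (0.0674) or Shh+ replicate 2 (0.0509). Without Shh+ replicate 2, 2 of the 11 further genes were called higher in Nfatc1+ cells instead of 4. Of 6 endothelial markers 5 were tested and none was called (0 toward Shh+ and 0 toward Nfatc1+ cells at an unadjusted p under 0.05), with sums of 4.82 and 4.62 FPKM in Shh+ and 3.66 and 5.63 FPKM in Nfatc1+ libraries. Their part in the level of Klf2 was not tested.

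The other tested genes, Klf7, Klf8, Klf11, Klf12, Sp2 and Sp4, were not called, with log2 differences between −0.06 and 0.28. Klf1, the erythroid factor, was at 0.676 and 0.544 FPKM in Shh+ cells and at 0.438 and 0.270 FPKM in Nfatc1+ cells, below the filter. Klf17, Sp7 (osterix, of bone) and Sp9 did not pass 0.21 FPKM in any library, and Klf14 was listed at 0 in all of them.

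The order of levels within the family changed most for Sp5 and Sp6. In Shh+ cells, Sp5 was 7th and Sp6 10th of 21 family genes at a mean of 0.5 FPKM or more. In Nfatc1+ cells they were 18th and 19th of 20. There the ranges of Klf8 and Sp5, of Sp5 and Sp6, and of Sp6 and Klf12 overlapped, while Klf8 and Sp5 lay above Klf12. Klf4 was 5th in Shh+ and 2nd in Nfatc1+ cells, apart from its neighbours in both. Klf3 was 13th in Shh+ cells, not separated from Klf7, and 7th in Nfatc1+ cells, where its range met no neighbour. In neither population did the ranges of Klf5 and Sp1 separate. The summed FPKM of the 26 family genes with a row was 339 and 324 in Shh+ libraries and 378 and 391 in Nfatc1+ libraries. Sp5 and Sp6 made up 7.82% and 8.05% of that sum in Shh+ libraries and 0.541% and 0.639% in Nfatc1+ libraries.

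**Figure D4:**
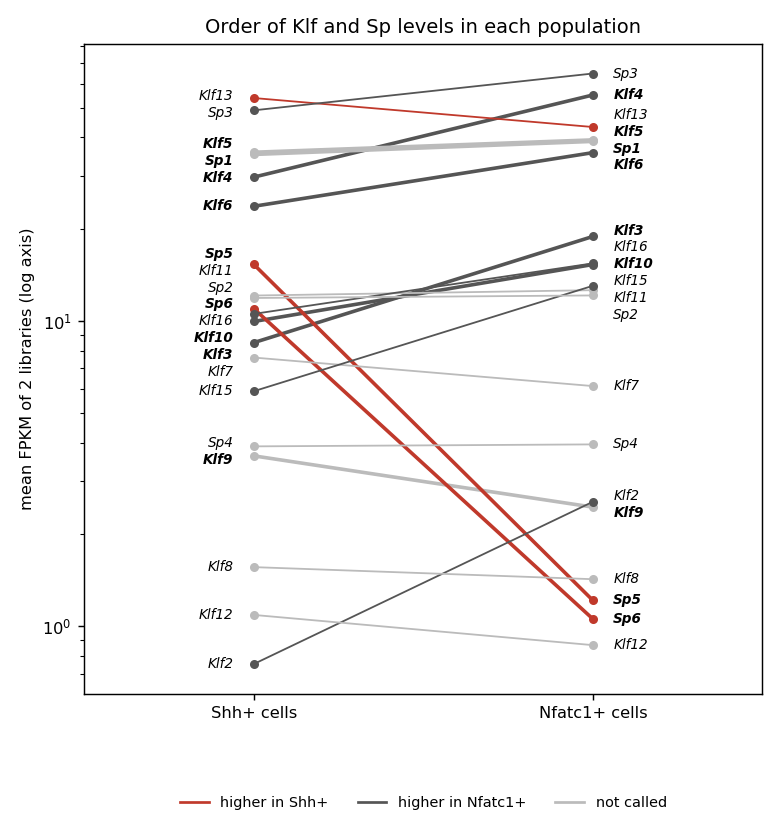
Mean FPKM of 2 libraries (log axis) of the 20 tested Klf and Sp genes in Shh+ cells (left) and Nfatc1+ cells (right), with thick lines and bold names for those chosen by symbol; red and dark grey lines mark a call toward Shh+ and toward Nfatc1+, light grey lines no call. The lines of Sp5 and Sp6 cross most of the family, at 15.3 and 11.0 FPKM in Shh+ cells and 1.22 and 1.06 FPKM in Nfatc1+ cells.

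Genes that work with the Klf and Sp factors, or respond to the same signals, were taken from lists and counted in the same fit. The lists were written with earlier results of these data known. Their counts stand beside 18.1% of all tested genes called toward Shh+ and 18.9% called toward Nfatc1+ cells (37.0% in either direction). Up to 3 called genes with the largest differences in each direction are named, and where a list had 4 or 5 the rest were named after their values were seen, as were the genes named without a call. Of 12 cofactors and regulators, limma called 1 toward Shh+ and 4 toward Nfatc1+ cells, with a median log2 difference of −0.12. Zfp750, a partner of Klf4 in epidermal differentiation, was at 38.7 and 41.9 FPKM in Shh+ cells and at 15.0 and 16.2 FPKM in Nfatc1+ cells, so it ran against Klf4 itself. Wwp1 and Fbxw7, which mark Klf5 for degradation, were higher in Nfatc1+ cells by 2.26-fold and 1.43-fold, as were Fhl3 (1.52-fold) and Ctbp2 (1.29-fold), which act with Klf3. Among the 7 that were not called were Ctbp1, at 110 and 106 FPKM in Shh+ cells and 110.4 and 110.5 FPKM in Nfatc1+ cells, and the histone deacetylase genes Hdac1 and Hdac2.

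Suprabasal genes, which mark the layers in which Klf4 acts, did not all follow Klf4. Of 16 such genes 11 were tested, 6 were called toward Shh+ and 4 toward Nfatc1+ cells, and the median log2 difference was 0.58. The majority toward Shh+ cells depended on the threshold. At an unadjusted limma p under 0.01 with a fold above 2, the counts were 2 toward Shh+ and 3 toward Nfatc1+ cells. Lor (loricrin, log2 difference 3.16), Grhl3 (2.46) and Tgm1 (0.87) led toward Shh+ cells. Prdm1 (−2.36), Abca12 (−2.31), Casp14 (−1.11) and Krtdap (−0.98) were higher in Nfatc1+ cells. Lor was at 11.3 and 5.54 FPKM in Shh+ cells and at 0.425 and 0.458 FPKM in Nfatc1+ cells, so the Shh+ libraries were far apart. Basal epidermal markers moved with Klf4 and Klf3: limma called 5 of 6 toward Nfatc1+ cells and 0 toward Shh+ cells (0 at an unadjusted p under 0.05), with sums of 1150 and 1100 FPKM in Shh+ libraries and 2511 and 2434 FPKM in Nfatc1+ libraries. Markers of sebocytes (6 of 7, summed at 30.4 and 26.4 FPKM in Shh+ and 132 and 113 FPKM in Nfatc1+ libraries) and of Merkel cells (7 of 8, at 23.9 and 29.1 FPKM in Shh+ and 59.1 and 66.7 FPKM in Nfatc1+ libraries) were also higher in Nfatc1+ cells. The part of these cell types in the levels of the Klf genes was not tested.

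Genes that act beside Sp6 and Sp8 in the limb ridge and tooth were read next. Of 12 on the list 6 were tested, with 3 called toward Shh+ and 1 toward Nfatc1+ cells and a median log2 difference of 0.92. Wnt3 (2.34), Bmp4 (2.06) and the homeobox gene Msx2 (1.21) were higher in Shh+ cells with Sp6. Fst, which encodes the activin and BMP antagonist follistatin, was at 10.8 and 18.9 FPKM in Shh+ cells and at 135 and 140 FPKM in Nfatc1+ cells (log2 difference −3.22, limma adjusted p = 6.71e-05), opposite to Sp6. Fgf8, Dlx6 and the enamel gene Amelx were listed at 0 in every library, as Sp8 was.

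Wnt/β-catenin targets other than Sp5 were mostly higher in Shh+ cells. Of 11 tested, 7 were called toward Shh+ cells and 1, Rnf43, toward Nfatc1+ cells (1.22-fold), with a median log2 difference of 0.80. Dkk4 (6.11), Lef1 (3.32) and Notum (3.31) had the largest differences, and that of Sp5 (3.21) came next to them. Rnf43 lost its call when either Nfatc1+ replicate 1 or 2 was left out, and then no target was called higher in Nfatc1+ cells.

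Immediate early and stress genes, which tissue digestion can induce, moved with Klf4, Klf6 and Klf10. Of 18 such genes outside the Klf family, limma called 16 toward Nfatc1+ cells and 0 toward Shh+ cells (0 at an unadjusted p under 0.05). Their median log2 difference was −0.74. The count of 16 fell to 12 with no filter on low values and to 11 without a trend, with 0 toward Shh+ cells in both. Fosb (−2.15), Fos (−1.79) and Egr2 (−1.71) had the largest differences. Fos was at 243 and 207 FPKM in Shh+ cells and at 817 and 736 FPKM in Nfatc1+ cells. The summed level of the list was 1581 and 1675 FPKM in Shh+ libraries and 3308 and 3758 FPKM in Nfatc1+ libraries. The log2 differences of Klf6 (−0.57) and Klf10 (−0.60) were smaller than the median of this list and that of Klf4 (−0.89) was larger. The part of digestion in the levels of these Klf genes was not tested.

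Genes tied to the signals that induce Klf10 and Klf9 did not show 1 direction. The activity of these signals, and its part in the levels of Klf10 and Klf9, was not tested. Of 10 TGF-β genes, Smad3 (0.50) was higher in Shh+ cells, and Tgfbi (−3.19) and the receptor gene Tgfbr2 (−1.24) were higher in Nfatc1+ cells with Klf10, while Smad7 and Skil, which the pathway induces, were not called. The median of the list was −0.02. Of 8 tested genes of the glucocorticoid and thyroid hormone list, 5 were higher in Shh+ cells with a median of 0.33: Fkbp5 (1.20), the glucocorticoid receptor gene Nr3c1 (0.81), Zbtb16 (0.77), Errfi1 (0.33) and Per1 (0.33). Another 3 were higher in Nfatc1+ cells, namely Sgk1 (−2.85), Tsc22d3 (−0.98) and the thyroid hormone receptor gene Thra (−0.76). The count of 5 was 3 without Nfatc1+ replicate 1, Nfatc1+ replicate 2 or Shh+ replicate 1.

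**Figure D5:**
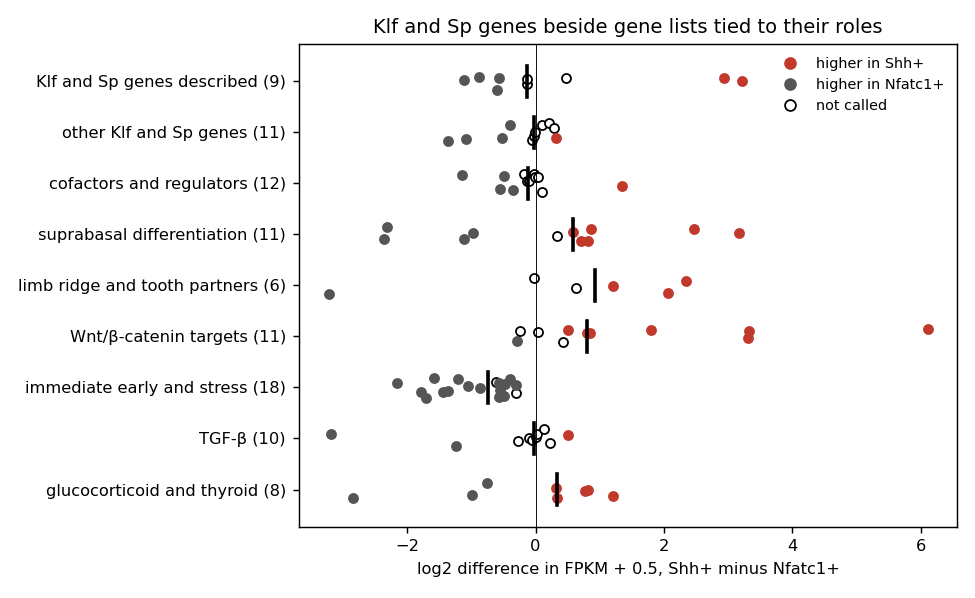
Log2 difference in FPKM + 0.5, Shh+ minus Nfatc1+, of each tested gene of the Klf and Sp families and of 7 lists tied to their roles, with the number tested in parentheses; red and grey fill mark a call toward Shh+ and toward Nfatc1+, open circles no call, and a black line the median of a list. Immediate early genes lie to the left (median −0.74), Wnt/β-catenin targets mostly to the right (0.80), and the Klf and Sp genes spread to both sides (−0.14).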

How the data were processed

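RNA from sorted cells was sequenced as paired reads. The authors mapped reads to GRCm38/mm10 with TopHat (2.0.13) and quantified genes with Cufflinks (2.2.1), and the submitters' processing notes also name HTSeq. The deposited values are FPKM per gene and library, and whether libraries were scaled to each other is not given in the sources used here. Tests used limma (3.58.1, empirical Bayes with a mean trend, two-sided) in R 4.3.3 across the 12750 genes averaging 0.5 FPKM or more, on log2(FPKM + 0.5), with Benjamini-Hochberg adjustment over all of them. The fit was tested on simulated data. With 2 libraries against 2, an exact permutation test cannot go below p = 0.333, so none is given. Intervals are 95% intervals from the same fit. The genes and lists were chosen with earlier results of these data known. Of the listed symbols, Klf18, Flg and Hbb-bs had no row. The rule named all family genes and, for other lists, up to 3 called genes with the largest differences in each direction; further called genes of short counts and some uncalled genes (Ctbp1, Hdac1, Hdac2, Smad7 and Skil) were named after their values were seen. Sequences are from RefSeq (GRCm38.p6), and overlaps of loci from GENCODE M21 (GRCm38). Markers of fibroblasts, immune, erythroid and muscle cells were also checked. Alternatives were other pseudocounts, filters and scalings, no trend, a replicate block, another threshold, and leaving out each library.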

Additional observations from a re-analysis of the deposited data

How the results depend on the processing

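The calls of Sp5, Sp6 and Klf3 held in all 13 alternatives, and those of Klf4, Klf6 and Klf10 in 12, the exception being an unadjusted p under 0.01 with a fold above 2, since they differed by less. At that threshold, 2 of the 10 genes were called toward Shh+ and 1 toward Nfatc1+ cells, with 600 and 734 over all genes. It gave 0 toward Shh+ and 1 toward Nfatc1+ cells for the rest of the family, and 1 and 1 for the cofactors. Suprabasal genes numbered 2 toward Shh+ and 3 toward Nfatc1+ cells, Wnt targets 4 and 0, and immediate early genes 0 and 8. In the same order, TGF-β genes numbered 0 and 2, and hormone genes 1 and 1. With no filter on low values, 2 limb ridge and tooth genes were higher in Nfatc1+ cells and 3 hormone genes in Shh+ cells. With a mean of at least 5 FPKM, 2 suprabasal genes and 2 Wnt targets were higher in Nfatc1+ cells. Without a trend, 0 Wnt targets were higher in Nfatc1+ cells and 3 hormone genes in Shh+ cells. When 1 library was left out, the further family genes higher in Nfatc1+ cells numbered 2 to 4, the Wnt targets higher there 0 to 1, and the hormone genes higher in Shh+ cells 3 to 5. The uncalled differences of Klf11 and Sp4 changed sign: with 1 library left out, Klf11 lay between −0.16 and 0.0506 (above 0 without Nfatc1+ replicate 2 or Shh+ replicate 1) and Sp4 between −0.12 and 0.0855 (above 0 without Nfatc1+ replicate 2 or Shh+ replicate 2), and Sp4 was at 0.00045 with median scaling. A fit with 1 library left in a population assumes that it varies like the others.

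The replicate numbers of the populations are not known to pair the libraries: the correlation of the deviations of libraries with the same number was 0.11 across genes, with only 2 pairs. With the replicate block, 2424 genes were called toward Shh+ and 2523 toward Nfatc1+ cells, against 2310 and 2406 without it, 2 Wnt targets were higher in Nfatc1+ cells, and Klf9 was called (adjusted p = 0.0427). The absolute depth is unknown, which limits how precisely levels near 1 FPKM, such as those of Sp5, Sp6 and Klf12 in Nfatc1+ cells, are known.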
